A study of Mus musculus with 24 samples.

Results

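The expression of 8 regulators of renal mitochondrial metabolism was examined in mouse kidneys after myocardial infarction (MI). These genes, Ppargc1a, Ppargc1b, Esrra, Esrrg, Ppara, Rxra, Hnf4a and Tfam, were selected by name out of 56941 genes in the count table and all 8 were found by their Ensembl identifiers and passed the filter on low counts. Male wild-type C57BL/6J mice, 8 to 11 weeks old at surgery, had their LAD (left anterior descending) coronary artery permanently ligated, and sham mice underwent the operation without ligation. Kidneys were collected 5d or 28d post-MI and sequenced by MACE, which counts fragments from the 3′ ends of mRNA. Assignable counts exist for 8 sham kidneys, 8 of the 9 labelled 5d post-MI and 6 of the 7 labelled 28d post-MI. Sham kidneys were collected at 5d and served both comparisons, so that at 28d post-MI the infarct and the longer time since surgery cannot be told apart.

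Mitochondria supply most of the energy for solute transport in the kidney, above all in the proximal tubule, which burns fatty acids. The coactivators PGC-1 alpha and PGC-1 beta bind no DNA themselves and raise mitochondrial capacity by docking on nuclear receptors. ERR alpha and ERR gamma carry them to genes of the citric acid cycle and the respiratory chain, and PPAR alpha, paired with RXR alpha, to genes of fatty acid oxidation. HNF4 alpha upholds the identity of proximal tubule cells, and TFAM packages and transcribes mitochondrial DNA.

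Promoter windows from RefSeq (GRCm38.p6), 250 bases before to 50 after a start, were taken for 7 of the 8 members, 12 windows in all. Ppargc1b was not included in this search, so that its promoter was not examined. The windows were searched on both strands for the core of the NRF1 motif (GCATGCGC), the core of the GABP motif (CCGGAAG), the core of a cAMP response element (TGACG) and the nuclear receptor core site (AGGTCA), because NRF1, GABP, CREB and nuclear receptors are known upstream factors of this circuit. The stretches below, 100 bases before to 20 after the start, are those of the members with an NRF1, GABP or cAMP response element match near the start, with the matches in capitals.
Esrra: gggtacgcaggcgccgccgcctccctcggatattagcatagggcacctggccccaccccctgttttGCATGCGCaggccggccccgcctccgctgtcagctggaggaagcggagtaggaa
Ppara: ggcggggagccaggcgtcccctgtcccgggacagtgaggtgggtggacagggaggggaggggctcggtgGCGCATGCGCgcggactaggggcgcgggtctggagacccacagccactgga
Tfam: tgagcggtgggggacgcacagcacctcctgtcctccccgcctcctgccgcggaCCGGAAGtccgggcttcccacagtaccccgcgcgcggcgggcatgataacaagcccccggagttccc
Ppargc1a: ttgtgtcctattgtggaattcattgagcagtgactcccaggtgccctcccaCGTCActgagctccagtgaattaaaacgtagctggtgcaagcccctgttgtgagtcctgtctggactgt
They lie at chr19:6921789-6921908 on the minus strand, chr15:85735676-85735795 on the plus strand, chr10:71238025-71238144 on the minus strand and chr5:51567706-51567825 on the minus strand. The stretches of Ppara and Tfam lie inside the gene spans given below for these members, and so does the Rxra window with the core site. For these genes the RefSeq starts used here thus differ from the starts of those spans. The NRF1 core began at −34 in Esrra and, in overlapping matches on both strands, at −31 and −29 in Ppara, and is held by 2.71% of all 32851 windows. The GABP core began at −47 in Tfam (8.86% of windows). The capitals in Ppargc1a are the reverse complement of TGACG at −49, and Ppara held these letters at −222, outside the stretch shown (20.8% of windows). The core site occurred at −87 and −48 in 1 of the 2 windows of Rxra (16.3% of windows). The longer ERR site TCAAGGTCA and the direct repeat AGGTCANAGGTCA, both of which hold the core site, are not in these 12 windows (0.423% and 0.0396% of all windows). Expression of Nrf1 and Gabpa is given with the mitochondrial DNA genes.

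Total counts per kidney ranged from 2280618 to 3786275, with overlapping ranges in the 3 groups. In edgeR's quasi-likelihood test over 12780 genes, 9 DEGs were found at 5d post-MI against sham, 3 at 28d post-MI against sham and 53 at 28d against 5d post-MI (adjusted p-value under 0.05). Transcripts of red blood cells were higher at 5d post-MI, with 4 haemoglobin genes of 7 tested red blood cell markers called (log2 fold changes 1.44 to 1.53). Fewer than 4 genes in all were called upward at 5d in 17 of the 22 fits with 1 kidney left out (all but those without sham replicate 8, 5d replicate 1, 5 or 8, or 28d replicate 2), 1 with either adipocyte score as a covariate and 0 with the replicate block, so that not all of these 4 calls held there. The summed red blood cell markers ran from 2277 to 4215 CPM in sham kidneys and from 5065 to 19240 CPM at 5d post-MI. White adipocyte markers summed to 421.7 to 2077 CPM in sham kidneys, 211.4 to 1509 CPM at 5d and 412 to 1042 CPM at 28d post-MI, and all 9 tested had negative log2 fold changes at both times with none called. Brown adipocyte markers summed to 77.4 to 474 CPM, 58.9 to 357 CPM and 70.0 to 159 CPM, with Cpt1b at 0 in all kidneys. All 6 tested had negative log2 fold changes at both times (medians −0.66 and −2.09), with none called and 2 and 6 of 6 at an unadjusted p-value under 0.05. Over all tested genes, 7.90% and 8.68% were under 0.05 at these times in either direction. Summed steroid synthesis genes of the adrenal cortex reached 50 CPM in 2 sham kidneys and 1 kidney at 5d post-MI. Their sums were 909 and 679 CPM in these sham kidneys and 79.9 CPM in the kidney at 5d, and no other kidney exceeded 4.27 CPM. In bulk kidney RNA, fewer cells of a type and less RNA per cell cannot be told apart. Proximal tubule genes, the defining genes of the labelled tissue, summed to 60110 to 73430 CPM in sham kidneys and 44790 to 78760 CPM at 5d post-MI. At 28d post-MI the sum was 75330 to 84830 CPM, above every sham kidney. Of these genes, 21 of 25 passed the filter. Most of the sum was Kap, an androgen-regulated kidney gene named here after its values were seen, with a mean of 48620 CPM in sham kidneys of a median sum of 67870 CPM. Kap averaged 58960 CPM at 28d post-MI (log2 fold change 0.28, adjusted p = 0.479 from edgeR). Podocyte, thick limb, collecting duct, endothelial, leukocyte and tubular injury markers held no called gene at either time against sham.

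None of the 8 regulators was a DEG in any comparison. At 5d post-MI, 0 of 8 were called, against a background of 0.0704% of tested genes. At 28d post-MI 0 of 8 were called, against 0.0235%, and between 28d and 5d post-MI 0 of 8, against 0.415%. At an unadjusted p-value under 0.05, 1 of 8 members was found at each time against sham and 0 between the times, beside 7.90%, 8.68% and 9.04% of all tested genes. DESeq2 and limma's voom also called 0 of 8 in each comparison, although DESeq2 gave Ppara no adjusted p-value for 28d against 5d post-MI. The median log2 fold change of the members was 0.01 at 5d and −0.02 at 28d post-MI, beside 0.0002 and −0.0012 for all tested genes. For every member, the range of expression post-MI overlapped that of sham kidneys at both times, and those of 28d and 5d post-MI overlapped too. Over all tested genes the ranges did not overlap for 0.0548% at 5d and 0.258% at 28d post-MI against sham and for 0.344% between the times.

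**Figure D1:**
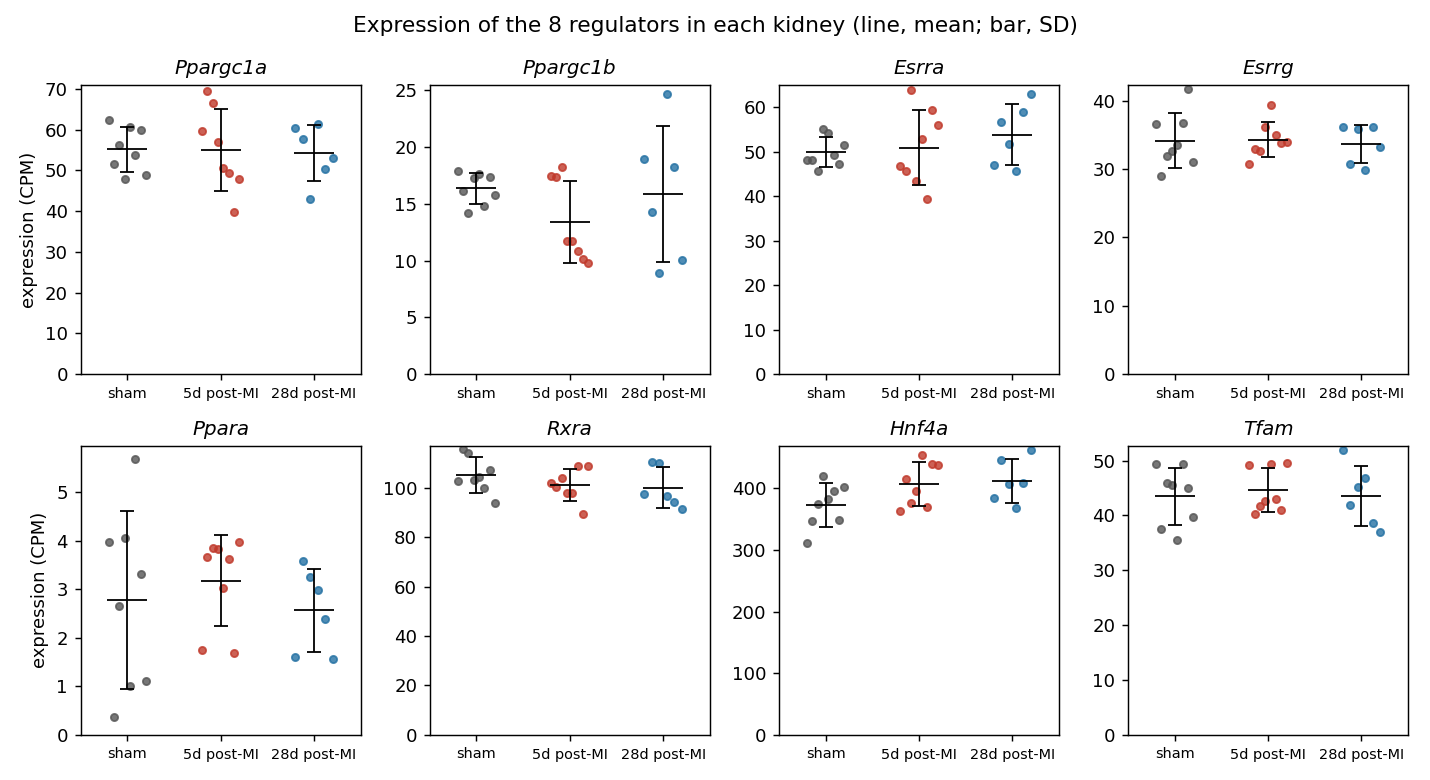
Expression of each regulator in CPM (vertical axes, each from 0) in sham kidneys (n = 8), at 5d post-MI (n = 8) and at 28d post-MI (n = 6); points are kidneys, lines group means and bars the SD. The groups overlap in all 8 panels, and Ppargc1b spreads more widely post-MI than in sham kidneys.

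Ppargc1a encodes PGC-1 alpha, the inducible coactivator of mitochondrial biogenesis (chromosome 5, 51454250 to 51567726 in GENCODE M21 on GRCm38). Its expression had a lowest, median and highest value of 48.0, 55.0 and 62.4 CPM in sham kidneys, 39.8, 53.8 and 69.5 CPM at 5d post-MI and 43.1, 55.3 and 61.3 CPM at 28d post-MI. The medians differed by less than the SD among sham kidneys, and at 5d post-MI 2 kidneys were above and 2 below every sham kidney. The means were 55.1 CPM (SD 5.50, n = 8), 55.1 CPM (SD 10.01, n = 8) and 54.3 CPM (SD 6.92, n = 6). Against sham, its log2 fold change was 0.0039 at 5d post-MI (95% confidence interval −0.18 to 0.19, adjusted p = 0.997 from edgeR) and −0.02 at 28d post-MI (−0.22 to 0.18, adjusted p = 0.985). Together the intervals reached from a difference of −14.2% to one of 13.9% relative to the sham level.

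Ppargc1b encodes PGC-1 beta, the related coactivator of basal mitochondrial capacity (chromosome 18, 61298136 to 61400431). In sham kidneys its lowest, median and highest values were 14.2, 16.7 and 17.9 CPM. At 5d post-MI these were 9.78, 11.7 and 18.2 CPM, and at 28d post-MI 8.95, 16.3 and 24.7 CPM. At 5d post-MI, 5 of 8 kidneys were below every sham kidney, between 9.78 and 11.8 CPM, while the other 3 were between 17.4 and 18.2 CPM, 1 of them above every sham kidney. The 5 lower kidneys were replicates 5 to 9 and the 3 higher ones replicates 1 to 3. What the replicate numbers stand for is not given, and a link to their order was not tested. At 28d post-MI, 3 of 6 kidneys were above and 2 below the whole sham range. Against sham, Ppargc1b had a log2 fold change of −0.29 at 5d post-MI (95% confidence interval −0.62 to 0.03, unadjusted p = 0.0775, adjusted p = 0.683 from edgeR). At 28d post-MI it was −0.06 (−0.42 to 0.29, adjusted p = 0.963). With the white and brown adipocyte scores as covariates, the 5d value was −0.44 and −0.35 (unadjusted p = 0.0135 and 0.0483, adjusted p = 0.689 and 0.804 from edgeR). With the replicate block it was −0.18 (unadjusted p = 0.266). The unadjusted p at 5d was under 0.05 in 4 of 10 other settings and 4 of 22 fits with 1 kidney left out. The coefficient of variation was 8.44% in sham kidneys, 26.9% at 5d and 37.5% at 28d post-MI, and this difference in spread was not tested. Counting error alone gives about 13.5%, 16.2% and 15.2% at the median counts of 54.5, 38 and 43 per kidney. The annotation places the microRNA gene Mir378a within Ppargc1b.

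Esrra encodes ERR alpha, the orphan receptor of respiratory chain and citric acid cycle genes (chromosome 19, 6910977 to 6921813). Its lowest, median and highest values were 45.5, 48.7 and 55.0 CPM in sham kidneys, 39.4, 49.8 and 63.8 CPM at 5d post-MI and 45.6, 54.1 and 63.0 CPM at 28d post-MI. At each time 3 kidneys exceeded every sham kidney, and at 5d post-MI 2 were below all of them. Esrra had log2 fold changes of 0.02 at 5d post-MI (95% confidence interval −0.15 to 0.19, adjusted p = 0.976 from edgeR) and 0.11 at 28d post-MI (−0.07 to 0.29, adjusted p = 0.803). The protein-coding gene Trmt112 overlaps Esrra on the opposite strand, and without a stated strand setting their reads cannot be told apart.

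Esrrg encodes ERR gamma, which acts on the same genes in tissues of high energy demand (chromosome 1, 187608791 to 188214885). Its lowest, median and highest values were 28.9, 33.1 and 41.7 CPM in sham kidneys, 30.7, 33.9 and 39.4 CPM at 5d post-MI and 29.9, 34.5 and 36.2 CPM at 28d post-MI. All kidneys post-MI lay within the sham range. Esrrg had log2 fold changes of 0.0009 at 5d (95% confidence interval −0.16 to 0.16, adjusted p = 0.9996 from edgeR) and −0.03 at 28d post-MI (−0.20 to 0.15, adjusted p = 0.971).

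Ppara encodes PPAR alpha, the fatty acid sensor (chromosome 15, 85734983 to 85802819). It was counted only 188 times over the 22 kidneys. Single kidneys had 1 to 15 counts in the sham group, 4 to 13 at 5d and 4 to 10 at 28d post-MI. The lowest, median and highest values were 0.376, 2.98 and 5.69 CPM in sham kidneys, 1.69, 3.63 and 3.97 CPM at 5d post-MI and 1.57, 2.69 and 3.58 CPM at 28d post-MI. All kidneys post-MI lay within the sham range. The log2 fold change was 0.21 at 5d post-MI (95% confidence interval −0.41 to 0.83, adjusted p = 0.922 from edgeR) and −0.13 at 28d post-MI (−0.85 to 0.59, adjusted p = 0.963). On the linear scale the intervals reached up to 1.78 times the sham level at 5d and down to 0.553 times that level at 28d post-MI.

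Rxra encodes RXR alpha, the partner of PPAR alpha (chromosome 2, 27676440 to 27762957). Its lowest, median and highest values were 93.7, 103.7 and 115.7 CPM in sham kidneys, 89.3, 101.1 and 108.7 CPM at 5d post-MI and 91.2, 97.1 and 110.3 CPM at 28d post-MI. One kidney at each time was below every sham kidney and none was above. The log2 fold change was −0.05 at 5d (95% confidence interval −0.17 to 0.06, adjusted p = 0.881 from edgeR) and −0.07 at 28d post-MI (−0.19 to 0.05, adjusted p = 0.818), the narrowest intervals among the members with those of Hnf4a.

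Hnf4a encodes HNF4 alpha, the receptor that upholds the proximal tubule (chromosome 2, 163506808 to 163572910), and was the member counted most often, 25560 times in all. Its lowest, median and highest values were 310.9, 378.8 and 419.3 CPM in sham kidneys, 363.3, 405.3 and 454.4 CPM at 5d post-MI and 367.2, 407.5 and 461.4 CPM at 28d post-MI. At 5d post-MI 6 of 8 kidneys were above the sham mean and 3 above every sham kidney, and at 28d post-MI 5 of 6 and 2 of 6, so that the ranges overlapped. The means were 373 CPM (SD 35.4, n = 8), 406 CPM (SD 35.4, n = 8) and 412 CPM (SD 35.9, n = 6). For Hnf4a, log2 fold changes against sham were 0.12 at 5d post-MI (95% confidence interval 0.0068 to 0.24, unadjusted p = 0.0388, adjusted p = 0.598 from edgeR) and 0.15 at 28d post-MI (0.02 to 0.27, unadjusted p = 0.026, adjusted p = 0.507). Both comparisons share the sham kidneys. With the brown adipocyte score as a covariate the log2 fold changes were 0.09 and 0.08 (unadjusted p = 0.145 and 0.257). Without sham replicate 1, the lowest sham kidney, they were 0.09 and 0.11 (unadjusted p = 0.118 and 0.0734). The unadjusted p at 5d was under 0.05 in 4 of 10 other settings and 15 of 22 fits with 1 kidney left out. At 28d post-MI it was so in 7 of 10 and 19 of 22. The lowest adjusted p over all settings was 0.374 at 5d and 0.325 at 28d post-MI, both from edgeR. The annotation places the antisense RNA gene Hnf4aos on the opposite strand.

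Tfam encodes the factor that packages and transcribes mitochondrial DNA (chromosome 10, 71225464 to 71238280). Its lowest, median and highest values were 35.6, 45.3 and 49.3 CPM in sham kidneys, 40.2, 42.8 and 49.5 CPM at 5d post-MI and 37.0, 43.5 and 51.9 CPM at 28d post-MI. No kidney post-MI was below the sham range, and 2 at 5d and 1 at 28d post-MI were above it. Tfam had log2 fold changes of 0.03 at 5d (95% confidence interval −0.13 to 0.20, adjusted p = 0.957 from edgeR) and −0.0031 at 28d post-MI (−0.18 to 0.18, adjusted p = 0.998).

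Between 28d and 5d post-MI, the log2 fold changes of the members ran from −0.34 for Ppara to 0.23 for Ppargc1b, with adjusted p-values from 0.781 to 0.978 in edgeR. Their median was −0.02, beside −0.0046 for all tested genes. The intervals were −1.05 to 0.37 for Ppara and −0.13 to 0.59 for Ppargc1b. The other members had log2 fold changes between −0.04 for Tfam and 0.09 for Esrra.

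**Figure D2:**
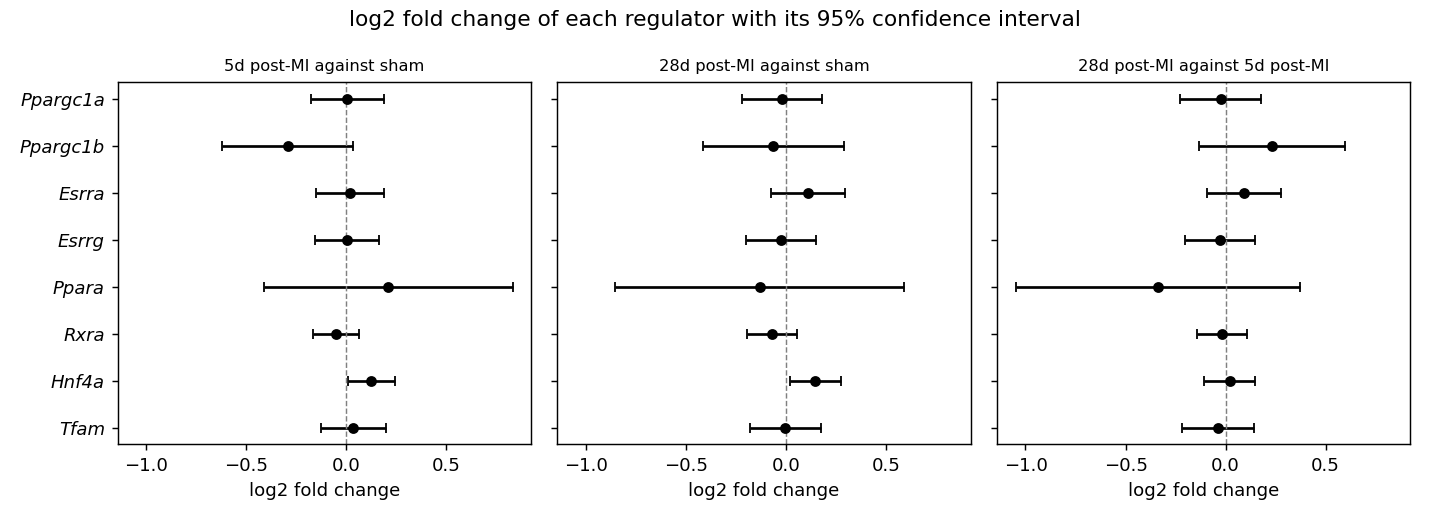
log2 fold change (horizontal axis) of each regulator with its 95% confidence interval in 3 comparisons. All intervals include 0 except those of Hnf4a against sham (0.0068 to 0.24 at 5d and 0.02 to 0.27 at 28d post-MI), and those of Ppara are the widest.

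The genes around the members were described by lists. Among 21 coactivators, corepressors and energy sensors none was called, with 1 gene at an unadjusted p-value under 0.05 upward at 5d and 1 in each direction at 28d post-MI. The median log2 fold changes were 0.07 and −0.0013. The sham mean of Prkaa1, a catalytic subunit of the energy sensor AMPK, was 21.4 CPM (SD 2.25, n = 8), and its mean 5d post-MI was 24.7 CPM (SD 1.99, n = 8, adjusted p = 0.570 from edgeR). Pprc1, a relative of the PGC-1 coactivators, had a log2 fold change of 0.39 at 28d post-MI (standard error 0.17, adjusted p = 0.527), and Kat2a, an acetyltransferase of PGC-1 alpha, one of −0.18 (standard error 0.09, adjusted p = 0.575).

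Of 17 related nuclear receptors and nephron factors, 15 could be tested and none was called (median log2 fold change 0.0071 at 5d and −0.01 at 28d post-MI). Pparg, the PPAR of adipocytes, averaged 6.01 CPM among shams (SD 3.41, n = 8), 3.59 CPM at 5d (SD 1.27, n = 8) and 3.45 CPM at 28d post-MI (SD 1.23, n = 6, adjusted p = 0.564 and 0.501 from edgeR). The white and brown adipocyte markers had lower medians at both times too, and their part in the values of Pparg was not tested. Nr3c2, the mineralocorticoid receptor, had a log2 fold change of 0.50 at 5d post-MI (standard error 0.17, adjusted p = 0.425). Ppard, the PPAR found in most tissues, had one of −0.33 at 28d post-MI (standard error 0.16, adjusted p = 0.575).

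Of 18 genes that maintain or transcribe mitochondrial DNA, 17 were tested, and none was called or had an unadjusted p-value under 0.05 against sham at either time. The median log2 fold change was 0.0037 at 5d and 0.0058 at 28d post-MI. This list holds Nrf1, with log2 fold changes of 0.13 and 0.02, and Gabpa, with −0.12 and 0.02, whose motif cores are shown above in the promoters of Esrra, Ppara and Tfam. The mRNAs encoded by mitochondrial DNA took 11.1% of all counts among shams (SD 0.273, n = 8), 11.07% at 5d (SD 0.528, n = 8) and 10.98% at 28d post-MI (SD 0.365, n = 6). The difference to sham was −0.0294 percentage points at 5d (exact permutation test, two-sided, p = 0.892) and −0.124 at 28d post-MI (exact permutation test, p = 0.467), and turned to 0.0494 and 0.167 with TMM-normalized library sizes as the denominator. None of these 13 mRNAs was called. At 28d post-MI, 3 had an unadjusted p-value under 0.05, all upward, among them mt-Nd4l (log2 fold change 0.20, adjusted p = 0.408) and mt-Co1 (0.12, adjusted p = 0.565), both encoding subunits of the respiratory chain. Over all tested genes 8.68% were under 0.05 at 28d post-MI in either direction.

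Of the 36 listed ERR and PGC-1 target genes of the citric acid cycle and respiratory chain, 35 were found and tested. None was called, and the median log2 fold change was −0.02 at 5d and −0.02 at 28d post-MI. Values lay between −0.18 and 0.21 at 5d and between −0.15 and 0.26 at 28d post-MI. Cs, citrate synthase, averaged 245 CPM among shams (SD 13.96, n = 8), 221 CPM at 5d (SD 18.8, n = 8) and 222 CPM at 28d post-MI (SD 17.8, n = 6, adjusted p = 0.437 and 0.445 from edgeR). Cox5b, a subunit of cytochrome c oxidase, was at −0.11 (log2 fold change) 28d post-MI, with adjusted p = 0.543.

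Of 38 target genes of PPAR alpha, 32 were tested, and none was called. At an unadjusted p-value under 0.05, 2 were higher and 1 lower at 5d, and 2 higher and 6 lower at 28d post-MI. Over all tested genes, 7.90% and 8.68% were under 0.05 at these times in either direction. The medians of the list were 0.03 and −0.05, and its log2 fold changes lay between −0.58 and 0.80 at 5d and between −1.88 and 0.75 at 28d post-MI. Between 28d and 5d post-MI, 2 of the list were higher and 9 lower at an unadjusted p-value under 0.05, beside 9.04% of all tested genes in either direction. The list had a median of −0.11, a range of −2.60 to 1.30 and none called in that comparison (lowest adjusted p = 0.0655 from edgeR). Cpt1a, the gatekeeper of mitochondrial fatty acid import, had a log2 fold change of 0.12 at 5d post-MI (standard error 0.06, adjusted p = 0.611), and Plin2, a lipid droplet coat protein, −0.21 (standard error 0.10, adjusted p = 0.622). At 28d post-MI, Acaa2, a thiolase of mitochondrial beta-oxidation, averaged 181 CPM (SD 18.2, n = 6) against 221 CPM among shams (SD 19.8, n = 8, log2 fold change −0.29, adjusted p = 0.119 from edgeR). Hadhb, a subunit of the trifunctional protein of the same pathway, averaged 67.8 CPM (SD 6.77, n = 6) against 83.1 CPM (SD 7.76, n = 8, log2 fold change −0.29, adjusted p = 0.231). Cyp4a14, a fatty acid omega-hydroxylase named after its values were seen, was the gene with the lowest log2 fold change of the list at 28d post-MI (−1.88, standard error 0.61, adjusted p = 0.361). It averaged 85.2 CPM among shams (SD 71.6, n = 8), 136 CPM at 5d (SD 95.7, n = 8) and 22.3 CPM at 28d post-MI (SD 8.11, n = 6). The white and brown adipocyte markers had medians of −0.99 and −2.09 at 28d post-MI, and their part in the values of these fatty acid genes was not tested.

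Of 25 proximal tubule genes, many of them HNF4 alpha targets, 21 were tested and none was called. The median log2 fold change was −0.0011 at 5d and 0.09 at 28d post-MI, with 18 of 21 positive at 28d, beside 6333 of all 12780 tested genes. At an unadjusted p-value under 0.05, 3 of the list were higher and 2 lower at 5d, and 5 higher and 3 lower at 28d post-MI. Over all tested genes, 7.90% and 8.68% were under 0.05 at these times in either direction. Cubn, the endocytosis receptor cubilin, and Aqp1, a water channel, showed log2 fold changes of 0.18 and 0.28 at 5d post-MI (adjusted p = 0.401 and 0.431 from edgeR). The transporters Slc5a12 and Slc34a3 had −0.32 (adjusted p = 0.335) and −0.27 (adjusted p = 0.444) at 28d post-MI.

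**Figure D3:**
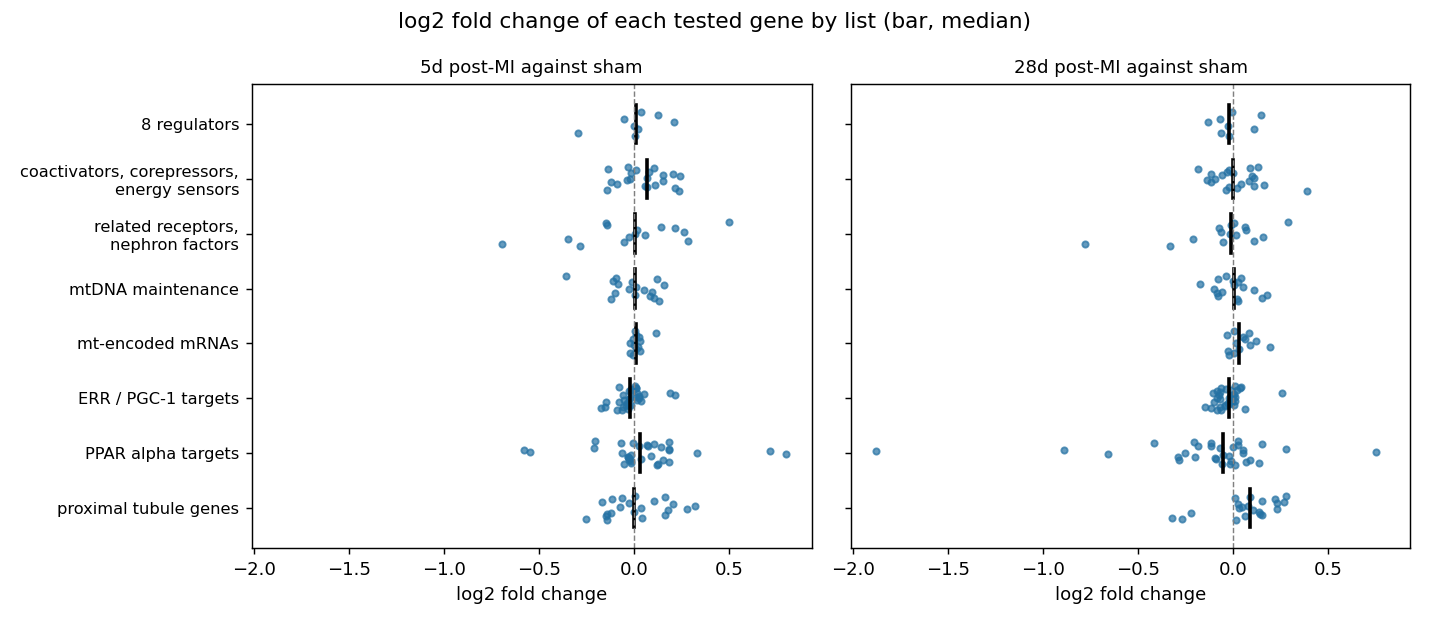
log2 fold change (horizontal axis) of each tested gene of 8 lists against sham at 5d post-MI (left) and 28d post-MI (right); points are genes and bars list medians. The medians lie between −0.02 and 0.07 at 5d and between −0.05 and 0.09 at 28d post-MI, and PPAR alpha target genes spread most widely.

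Whether the members varied together was examined across the 22 kidneys after the group means of log2 CPM had been subtracted, over 28 pairs. Ppargc1a and Ppargc1b were correlated (Pearson's r = 0.716, permutation p = 0.00045, adjusted p = 0.013; Spearman's rho = 0.752, permutation p = 0.00042, adjusted p = 0.012). Kidneys with more Ppargc1a thus tended to have more Ppargc1b within their group. Without the 2 kidneys farthest from the median of Ppargc1a, r was 0.697. Within groups, r was 0.332 in sham kidneys, 0.883 at 5d and 0.752 at 28d post-MI. It was 0.732 without the 3 kidneys with steroid synthesis genes and between 0.654 and 0.761 with each kidney left out. At 5d post-MI, replicates 1 to 3 were above the group mean for both genes, and replicates 5 to 9 were below it for Ppargc1b. Leaving out 1 kidney does not remove these 3 together, and r without them was not computed. None of the other 27 pairs passed the adjustment. By the permutation p of Pearson's r, the next were Esrra with Hnf4a (r = 0.545, permutation p = 0.01, adjusted p = 0.14; rho = 0.602, adjusted p = 0.084) and Ppargc1b with Hnf4a (r = −0.493, permutation p = 0.021, adjusted p = 0.18; rho = −0.522, adjusted p = 0.14). Ppara with Tfam (r = 0.512, permutation p = 0.028, and 0.328 without 2 kidneys) and Ppargc1a with Hnf4a (r = −0.469, permutation p = 0.033) followed, both with adjusted p = 0.18.

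The members were also set against the scores of proximal tubule, white adipocyte and brown adipocyte genes, 24 relations in all, and none passed the adjustment. The strongest was that of Hnf4a with the proximal tubule score (r = 0.610, permutation p = 0.0048, adjusted p = 0.12; rho = 0.616, permutation p = 0.0039, adjusted p = 0.092). Within groups this r was 0.584 in sham kidneys, 0.669 at 5d and 0.702 at 28d post-MI. For Ppargc1a and Ppargc1b, r with the same score was −0.453 (adjusted p = 0.20) and −0.363 (adjusted p = 0.41). With the white and brown adipocyte scores, r lay between −0.384 and 0.378 over the 8 members.

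**Figure D4:**
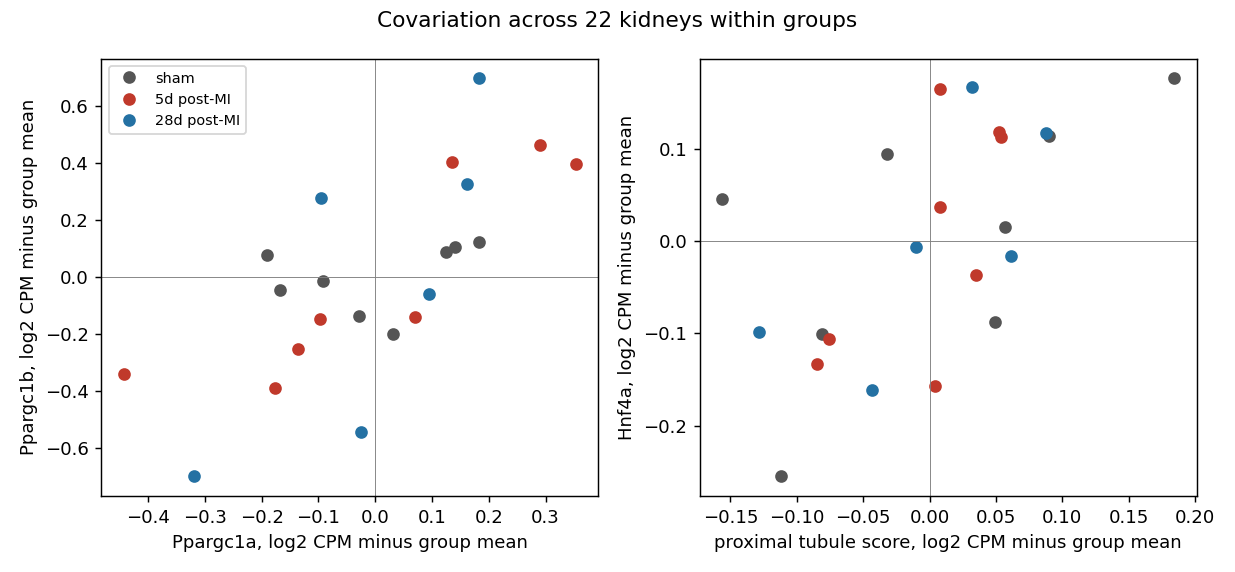
Left, log2 CPM of Ppargc1b against Ppargc1a; right, Hnf4a against the proximal tubule score, each with its group mean subtracted; points are the 22 kidneys, coloured by group. Over all 22 kidneys r was 0.716 on the left, which passed the adjustment for the pairs tested, and 0.610 on the right, which did not pass its adjustment. Within sham kidneys alone r was 0.332 on the left and 0.584 on the right.

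The genes whose pattern over the 22 kidneys was most like that of each member, by Pearson's r after subtraction of group means, were searched among 9300 genes with a mean of at least 10 CPM. Because the highest of 9300 values were taken, they are given as a description. Ppargc1a was closest to Tcf7l2 (r = 0.822), Kctd12 (0.812) and Slc35f2 (0.801), and Ppargc1b to Kazn (0.834) and Cirbp (0.833). Esrra was closest to the processed pseudogenes Gm13394 (0.873), Gm4459 (0.817) and Gm10250 (0.803), and Hnf4a to Mak16 (0.894) and the pseudogenes Gm6210 (0.796) and Gm7232 (0.790). Esrrg was closest to Naglu (0.754), Qprt (0.704) and Tfe3 (0.670), and Tfam to Eogt (0.771), R3hdm2 (0.710) and Paics (0.708). Rxra was closest to Gnmt (0.784), Prkar2a (0.715) and Fgd5 (0.712), and the sparsely counted Ppara to Gm10240 (0.743), Pafah1b2 (0.732) and Pdxdc1 (0.709). The points share their libraries and depth, and reads could be split between pseudogenes and their parent genes.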

How the data were processed

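RNA of 24 labelled mouse kidneys was sequenced by MACE (3′ ends of polyadenylated mRNA, with unique molecular identifiers). Per the study's methods, reads were trimmed with Cutadapt, mapped to mm10 and counted with HTSeq, while the submitters' processing notes name mm39 and Bowtie2. The annotation and the strand setting are not given in the sources used here. The authors deposited whole-number counts per gene without normalization. They also deposited values named tpm, which equal CPM (counts scaled to each kidney's total) within 5e-06, without division by gene length. The authors' CPM values were not used in any test. Of 48 columns, 4 could not be assigned to a sample and were left out.

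Counts were analysed with R 4.3.3 and edgeR 4.0.16. Genes were filtered by filterByExpr (minimum count 10), normalized by TMM and fitted by robust quasi-likelihood models over 22 kidneys in 3 groups. Contrasts were tested two-sided by the F test, with Benjamini-Hochberg adjustment over 12780 genes. DESeq2 1.42.0, voom of limma 3.58.1, other normalizations, no filter, fits of 2 groups only, a replicate block, adipocyte scores as covariates and kidneys left out were alternatives. The scripts were tested on simulated counts. Python 3.11.15, numpy 2.4.6, scipy 1.17.1 and matplotlib 3.10.9 were used for permutation tests and plots. List scores are mean log2 CPM with a prior count of 2. Relations between genes were tested by 100000 permutations within groups. The members and the gene lists were chosen with earlier results of these data known. Named genes were the 8 members, the genes of each list with an adjusted p-value under 0.05 against sham or otherwise the 2 with the lowest unadjusted p-value under 0.05, and the 3 genes most correlated with each member among genes with a mean of at least 10 CPM; not every gene the rule names is reported here. Total counts per kidney were between 2280618 and 3786275. The 95% confidence intervals of fold changes are from the edgeR fit and include the spread between kidneys.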

Additional observations from a re-analysis of the deposited data

Results flagged for a closer look

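No member and no group's share of mitochondrially encoded mRNAs had a kidney far from the others of its group by Dixon's test at 95%, which chance alone passes in about 1 in 20 groups (7.35 of the 147 groups tested), and no member differed between 28d and 5d post-MI in edgeR. The following 8 values of other genes passed Dixon's test. Akr1b7, an adrenal cortex marker, was 14.7 CPM in 1 kidney at 5d post-MI, the next highest being 7.80 CPM. In sham replicate 4, Hba-a1 was 581 CPM (next lowest 804 CPM) and Hbb-bt 217 CPM (next lowest 382 CPM). In 1 kidney at 28d post-MI, Hbb-bs was 2153 CPM (next highest 1224 CPM) and Hbb-bt 622 CPM (next highest 309 CPM). Kcnj1, a potassium channel of the thick limb, was 150.6 CPM in 1 kidney at 5d post-MI (next highest 118 CPM). The respiratory chain mRNA mt-Co1 was 6156 CPM in 1 sham kidney (next highest 5359 CPM) and 6601 CPM in 1 kidney at 5d post-MI (next highest 5611 CPM).

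The haemoglobin genes differed between the times in edgeR's test of 28d against 5d post-MI. The log2 fold changes were −1.78 for Hba-a1, −1.80 for Hba-a2, −1.75 for Hbb-bs and −1.88 for Hbb-bt.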

How the results depend on the processing

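No member was called in any of the 3 comparisons under any alternative run, including each of the 22 fits that left out a kidney. Of 766 log2 fold changes of members under alternatives, 699 kept their direction, and the 67 that changed sign belonged to values close to 0 or, for Ppara and Ppargc1b, with wide intervals; the cause was not tested. The correlation of Ppargc1a and Ppargc1b also held with library totals alone (r = 0.738), chosen after seeing the data. Depth limits Ppara most, and then Ppargc1b.

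The number of DEGs over all genes, in the order of 5d, then 28d relative to sham, then 28d relative to 5d, depended on the setting. It was 80, 94 and 160 with no filter on low counts, 35, 42 and 96 in DESeq2, and 2, 31 and 26 in fits of only the 2 groups. Against sham, it was 5 and 1 with library totals alone, 22 and 11 in limma's voom, 1 and 5 with the white adipocyte score as a covariate, 1 and 1 with the brown adipocyte score, and 2 and 1 without the kidneys with steroid synthesis genes. With 1 kidney left out, it ranged from 1 to 38 (the highest without 5d replicate 1), from 0 to 29 and from 41 to 84.

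Same-numbered kidneys came from different mice. The r of their deviations from the group means over all tested genes was between −0.127 and 0.09 for 18 pairs. For the 142 pairs with other numbers it was between −0.211 and 0.222. Whether same-numbered kidneys shared a step of processing is not given and was not tested. With the number as a replicate block, 2, 24 and 80 DEGs were found, and the log2 fold change at 5d post-MI was −0.0142 for Esrra and −0.0094 for Esrrg.

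Signs turned as follows at 5d post-MI. Ppargc1a was −0.0062 with library totals alone, −0.0055 in voom, −0.0294 and −0.0249 with the white and brown adipocyte scores and −0.023 without the kidneys with steroid synthesis genes. Esrra was −0.0025 in voom and −0.0136 and −0.0041 with the scores. Esrrg was −0.0107 with library totals alone, −0.0018 in DESeq2, −0.0052 and −0.0146 with the scores and −0.0289 without the kidneys with steroid synthesis genes. At 28d post-MI, Ppara was 0.14 in voom and 0.0153 with the brown adipocyte score, and Tfam 0.0026 with that score. At 28d against 5d post-MI, Rxra was 0.0095 and Hnf4a −0.0069 with the brown adipocyte score, and Hnf4a −0.0071 with library totals alone.

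With 1 kidney left out, the log2 fold change at 5d post-MI ranged from −0.0526 to 0.0552 for Ppargc1a, −0.0348 to 0.0671 for Esrra, −0.028 to 0.0514 for Esrrg and −0.0024 to 0.0629 for Tfam. At 28d post-MI it ranged from −0.0571 to 0.036 for Ppargc1a, −0.2355 to 0.0499 for Ppargc1b, −0.0548 to 0.0236 for Esrrg, −0.2764 to 0.0618 for Ppara and −0.0584 to 0.0414 for Tfam. At 28d against 5d post-MI it ranged from −0.0753 to 0.0324 for Ppargc1a, −0.0486 to 0.0051 for Esrrg, −0.0484 to 0.0036 for Rxra, −0.019 to 0.0528 for Hnf4a and −0.0921 to 0.0044 for Tfam.

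With TMM-normalized library sizes, the differences in the share of mitochondrially encoded mRNAs were 0.0494, 0.167 and 0.117 percentage points, in the same order. With 1 kidney left out, they ranged from −0.144 to 0.0779 at 5d against sham and from −0.220 to 0.0192 at 28d against 5d post-MI.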
